A study of Mus musculus with 5 samples.

Results

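The corticotropin-releasing hormone (CRH) system was described by 4 genes of the 22532 in the files. Crh encodes the peptide, Crhr1 and Crhr2 encode its receptors, and Crhbp encodes a binding protein that holds the peptide outside the cell. The genes were chosen by their symbol in the gene lists of the files, not by a measured value, and all 4 were present once. The choice was made with earlier results of these data known. CRH is made by neurons of the hypothalamus, where it drives the pituitary stress hormone axis, and by inhibitory neurons of the central amygdala (CeA), where it has been studied in fear, arousal and stress. Both receptors couple mainly to the stimulatory G protein, which raises cAMP. Crhr1 binds CRH and urocortin 1, Crhr2 also binds urocortins 2 and 3, and the binding protein takes up free CRH and urocortin 1.

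Single nuclei of the mouse CeA were sequenced in 5 libraries, each from tissue pooled from 1 male and 1 female mouse. Fed 1 and fed 2 came from mice of 8 weeks with normal feeding and no transgene in the labels. Fed 3 came from Htr2a-Cre mice of 12 weeks, a transgenic line injected with a Cre-dependent virus for mCherry, so that genotype, virus and age all differ between this library and the others. Fasted 1 and fasted 2 came from mice of 8 weeks without food, for 20 hours in fasted 1 and for 21 hours by the label of fasted 2. The labels name C57BL6 for every library. By the study, wild-type mice were C57BL/6NRj and transgenic lines were crossed back to C57BL/6N, so that the strain name of fed 3 may also differ. With 2 mice in each library, no p-value measures the spread between single mice. In the fasting tests without a block, p-values measure the spread between libraries. In tests with the libraries as blocks, they measure how much a difference found within libraries varies from library to library.

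The files held 1694 to 7850 barcodes per library, and 7161 nuclei passed the bounds of 500 to 8000 genes and mitochondrial UMIs below 0.8%. A UMI is a molecular tag that counts 1 captured RNA molecule. The median depth per kept nucleus ran from 6608 UMIs in fasted 1 to 16367 in fasted 2, with 8326 in fed 1, so the libraries of replicate 1 were the shallow ones in both states. The median mitochondrial share of kept nuclei was 0.136, 0.0788 and 0.0529% in fed 1, 2 and 3, and 0.317 and 0.237% in fasted 1 and 2. It was thus higher in both fasted libraries, and its part in the fasting comparisons was not tested. Kept nuclei of different libraries shared at most 1 barcode. By raw UMIs of marker genes, 4743 nuclei were inhibitory, 56 were excitatory and 710 were glia. Inhibitory nuclei were set by Gad1 and Gad2, excitatory ones by Slc17a7 and Slc17a6, and glia by sums of glial markers. Nuclei were then placed in classes by UMIs of Pde1c, Foxp2, Rarb, Nkx2-1, Dnah5, Vdr, Prkcd, Calcrl and Sst, in that order, which left 2252 ungated inhibitory nuclei. No gate used one of the 4 genes.

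In the study, Pde1c, Rarb, Foxp2 and Nkx2-1 mark neurons outside the CeA proper. Pde1c stands for the nucleus that accompanies the anterior commissure (IPAC), Rarb for the amygdalostriatal area, Foxp2 for intercalated cells and Nkx2-1 for interneurons of the basolateral amygdala. Classes were checked against further markers where the lists had any. The classes and lists were chosen with earlier results of these data known. This check, and the later counts of list markers, are therefore not independent of the data. In the Dnah5 class, Vipr2 stood at 215 ± 41.1 UMIs per 1000000 UMIs of the class (CPM; SD, n = 5 libraries), against 25.7 ± 6.50 in all inhibitory nuclei. The Dnah5 gate comes before that of Prkcd, and the class also held more Prkcd. Over the genes of the fasting fits, Prkcd had a mean of 245 CPM in Dnah5 and 87.3 in all inhibitory nuclei. The list for Prkcd neurons (Prkcd, Sox5, Tmcc3 and Rreb1) summed to 1414 CPM in Dnah5, 1187 in all inhibitory nuclei and 5780 in the Prkcd class. The part of such nuclei in the Dnah5 levels was not tested. In the Foxp2 class, Tshz1 stood at 342 ± 69.0 CPM against 45.8 ± 13.7. In the Nkx2-1 class, Sox6 stood at 1166 ± 177 CPM (n = 3) against 86.5 ± 19.3. The Pde1c and Rarb classes rest on 1 gene each, and the place of these nuclei could not be checked further. The Sst class did not stand apart by the list used here for Sst neurons of the lateral CeA (Sst, Ebf1, Erbb4, Sema6d and Trpc5). Its summed level was 6260 CPM in that class, 6327 in Foxp2, 6314 in oligodendrocyte precursors (OPC) and 2136 in all inhibitory nuclei. The Sst class also held more of the basolateral interneuron list (Nkx2-1, Lhx6, Sox6 and Maf), with a sum of 235 to 819 CPM over libraries and a mean of 416, against 107 in all inhibitory nuclei and 1427 in the Nkx2-1 class. The Sst class is named here by its gate only.

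The genes lie on 4 chromosomes of GRCm39. Crh is short and spans chr3:19747565-19749655 on the minus strand, 2091 bases of which 32.3% are intronic. Crhr1 spans chr11:104023164-104066351 on the plus strand and is 91.0% intronic. Crhr2 spans chr6:55067032-55110027 on the minus strand and is 87.6% intronic, and Crhbp spans chr13:95567879-95581841 on the minus strand and is 84.2% intronic. Since intronic reads were counted and the genes differ in length, levels were compared between classes and libraries and not between genes.

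Promoter windows of 300 bases, 250 before and 50 after the start, were taken from RefSeq on build GRCm38.p6 and found once each on GRCm39. The windows of Crhr2 and Crhbp are shown because transcripts of this receptor and of the binding protein lay in the same nuclei more often than in other nuclei. The Crhr2 window is at chr6:55109952-55110251 and the Crhbp window at chr13:95581290-95581589, both on the minus strand, and capitals mark the letters TATAAA.
Crhr2: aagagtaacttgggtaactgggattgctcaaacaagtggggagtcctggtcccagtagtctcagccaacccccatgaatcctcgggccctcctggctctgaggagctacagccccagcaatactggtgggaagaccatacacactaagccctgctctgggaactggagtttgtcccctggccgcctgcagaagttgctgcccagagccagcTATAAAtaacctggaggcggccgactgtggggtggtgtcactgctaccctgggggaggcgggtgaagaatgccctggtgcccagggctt
Crhbp: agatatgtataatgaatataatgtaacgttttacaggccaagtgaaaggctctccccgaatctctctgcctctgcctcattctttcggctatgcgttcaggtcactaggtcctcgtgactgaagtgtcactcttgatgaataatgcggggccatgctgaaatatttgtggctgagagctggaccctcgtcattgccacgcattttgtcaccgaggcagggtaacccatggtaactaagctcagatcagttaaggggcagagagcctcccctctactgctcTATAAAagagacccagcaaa
The letters TATAAA, searched on both strands, begin 39 bases before the start in Crhr2 and 30 bases after it in Crhbp, and 13.6% of 32851 such windows hold them. The Crhr1 window, chr11:104023357-104023656, holds none and has 75.0% G and C, against a median of 52.7% over all windows, 59.0% in Crhr2 and 48.0% in Crhbp. The Crhbp and Crhr1 windows lie wholly inside the gene spans given above. The RefSeq start used for them therefore differs from the outer end of the annotated gene. The cAMP response element TGACGTCA is in none of these 3 windows, and 1.79% of all windows hold it. Neither motif overlaps the other in them. The promoter set had no window for Crh, so the promoter of the peptide gene was not examined.

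Crh transcripts were sparse. Of the 4743 inhibitory nuclei, 180 had a Crh UMI and 133 of these had only 1, with 268 UMIs in all and at most 11 in a nucleus. The nuclei with a Crh UMI numbered 35 in the Pde1c class, 43 in the Dnah5 class, 8 in the Vdr class and 58 in the ungated nuclei, the largest class.

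The Pde1c class had the highest Crh level. It held 44.1 CPM in fed 1, 23.7 in fed 2, 13.7 in fed 3, 20.5 in fasted 1 and 22.4 in fasted 2, a mean of 24.9 ± 11.4 CPM (SD, n = 5). Each of these values lies above the level of Crh in the ungated nuclei, 2.53 ± 1.61 CPM. In the Dnah5 class, Crh stood at 4.11, 16.3, 13.8, 4.67 and 8.03 CPM in the same order, a mean of 9.39 ± 5.47. The 2 lowest values are those of the 2 shallow libraries, fed 1 and fasted 1, and both lie below the 5.56 CPM of Crh in barcodes outside the bounds. The Vdr class, with 50 nuclei in all and 3 libraries of at least 10 nuclei, held 7.11 CPM in fed 1, 17.9 in fed 3 and 11.6 in fasted 2.

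**Figure D1:**
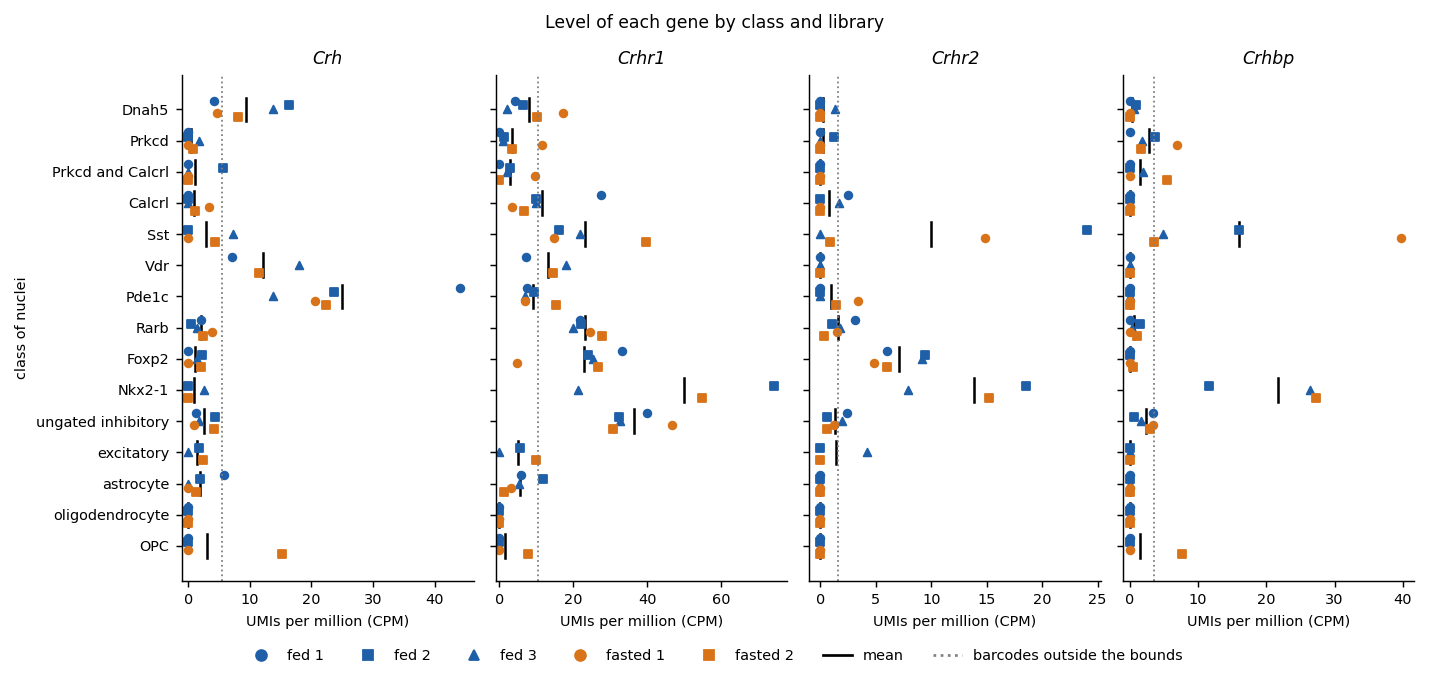
Level of Crh, Crhr1, Crhr2 and Crhbp in each class of nuclei, in CPM (x axis, linear), by class (y axis). Each point is 1 library with at least 10 nuclei of the class, fed and fasted marked apart, the bar is the mean over libraries, and the dotted line is the level in barcodes outside the bounds. Crh lies highest in the Pde1c class at 13.7 to 44.1 CPM, and Crhr2 and Crhbp lie highest in the Nkx2-1 class.

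In the remaining inhibitory classes Crh was near the bottom of the scale. The means were 2.91 ± 3.55 CPM in Sst (n = 4), 2.06 ± 1.22 in Rarb, 1.12 in Foxp2, 1.14 in Prkcd and Calcrl, 0.906 in Calcrl, 0.880 in Nkx2-1 and 0.517 in Prkcd. Glia, which should lack the gene, held 1.61 CPM of Crh over all libraries, from 5 UMIs (exact Poisson 95% interval 0.523 to 3.76). The last 5 of these means lie below that level and were read as background. Those of Sst and Rarb and the 2.53 CPM of the ungated nuclei lie above it but within its interval. The ungated nuclei, 47.5% of inhibitory nuclei, held 103 of the 268 Crh UMIs, 38.4%, in 58 nuclei. Of these, 51 UMIs were in 27 nuclei of fasted 2, so this class was not read as background. Barcodes outside the bounds held 5.56 CPM, more than the 3.76 CPM of all inhibitory nuclei pooled, and were not taken as a measure of background.

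Each class was compared with the equal-weight mean of the other inhibitory classes, over 9354 genes with the libraries as blocks. A gene entered this fit only if enough of its sums passed a filter on low counts. The highest Crh sums lie in Pde1c, Dnah5 and Vdr, so Crh passed the filter through classes where it is high. The calls below are therefore not independent of the filter. Those in Pde1c and Dnah5 also passed with no filter. Crh differed in 3 of the 11 inhibitory classes and was higher in each. In Pde1c the log2 fold change was 3.39 ± 0.40 (SE; edgeR quasi-likelihood test, adjusted p = 1.67e-09), where 18.6% of all genes tested passed in either direction. In Dnah5 it was 2.09 ± 0.36 (adjusted p = 9.24e-06 in edgeR; 21.8% of genes passed), and in Vdr 2.47 ± 0.77 (adjusted p = 0.027 in edgeR; 10.4% passed). The call in Vdr was lost without fed 1, fed 3 or fasted 2, at edgeR adjusted p of 0.0664, 0.165 and 0.138. The other classes hold few or no Crh UMIs in some libraries, so the size of a log2 fold against their mean depends on the small count the tool adds.

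Against the summed UMIs of all other inhibitory nuclei, a comparison added after the data were seen, the log2 fold change of Crh was 2.95 ± 0.36 in Pde1c (edgeR adjusted p = 2.12e-08; 15.8% of genes passed). It was 1.72 ± 0.30 in Dnah5 (edgeR adjusted p = 0.000425; 24.3% passed). In Vdr it was 1.85, with an edgeR adjusted p of 0.152, where 6.37% of genes passed, so that the call in this class was lost.

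The same 3 classes had the highest shares of nuclei with a Crh UMI, which were not tested. Deeper nuclei have more chances of a UMI, so each nucleus was also thinned to 4000 UMIs. With all UMIs, 18.9% of Pde1c nuclei, 16.0% of Vdr nuclei and 11.2% of Dnah5 nuclei had a Crh UMI, and 0.563% of glia did, at a median depth of 13284 UMIs in inhibitory nuclei and 3849 in glia. After thinning, the shares were 6.63% in Pde1c (exact 95% interval 3.47 to 11.3), 6.0% in Vdr (1.25 to 16.5, from 3 nuclei) and 2.1% in Dnah5 (0.911 to 4.10, from 8 nuclei). The interval of Dnah5 overlaps that of the ungated nuclei, at 1.06% (0.673 to 1.59). The 2 shares were not tested against each other, and the overlap does not decide whether they differ. In thinned glia, Crh was in 0 of 325 nuclei, and the limit that this count sets is 0.923%. Thinning left out 385 of the 710 glia and 114 of the inhibitory nuclei, and these intervals and limits cover counting error only.

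**Figure D2:**
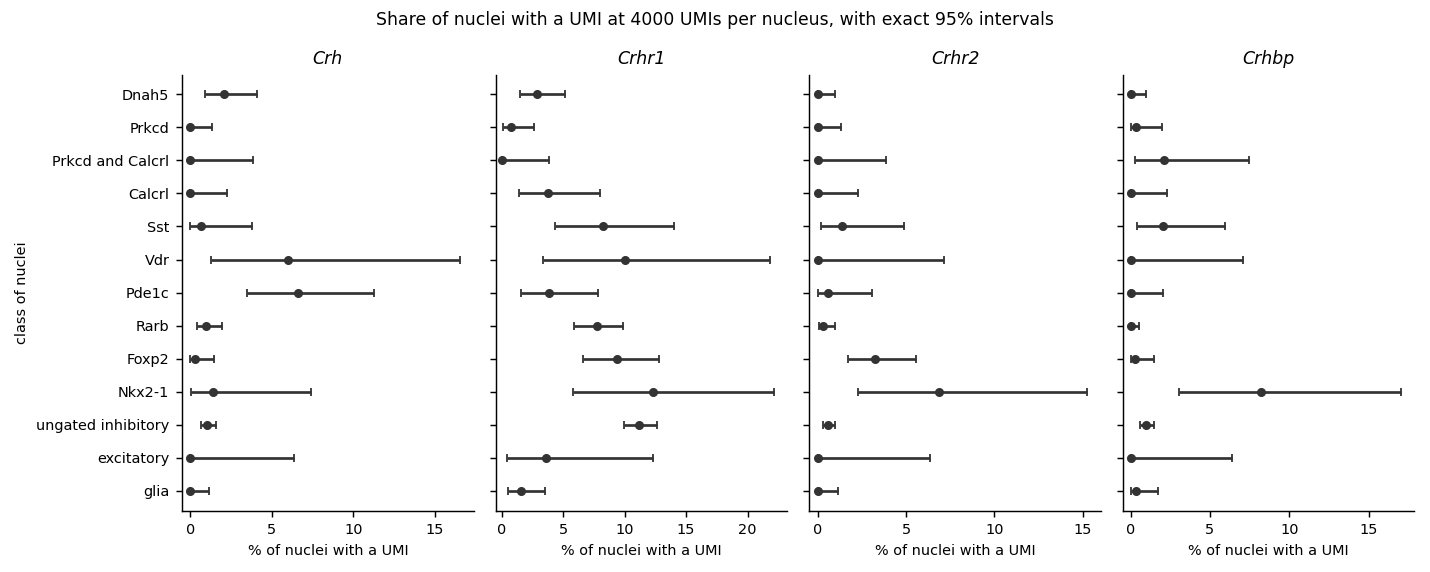
Share of nuclei with a UMI of each gene (x axis, percent) by class (y axis), after every nucleus was thinned to 4000 UMIs. Points are shares over the nuclei of all libraries and bars are exact 95% intervals for counting error. The Crhr1 share is 11.2% in the ungated inhibitory nuclei and 0.722% in the Prkcd class.

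Crhr1, the main CRH receptor of the forebrain, had UMIs in 1064 of the 4743 inhibitory nuclei, with 659 of these at 1 UMI and 1812 UMIs in all. Its highest levels were in Nkx2-1 and in the ungated nuclei, and its lowest in the classes gated by Prkcd. The ungated nuclei held 39.8 CPM in fed 1, 32.3 in fed 2, 32.5 in fed 3, 46.5 in fasted 1 and 30.6 in fasted 2, a mean of 36.3 ± 6.70 (n = 5). The 5 values lie within a narrow range, and they hold 681 of the nuclei with a Crhr1 UMI.

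The Nkx2-1 class held 74.1 CPM of Crhr1 in fed 2, 21.1 in fed 3 and 54.6 in fasted 2, a mean of 49.9 ± 26.8 (n = 3). It stands first by its mean, but its range covers that of the ungated nuclei, from which it does not differ beyond its spread. Rarb at 23.1 ± 3.02 CPM, Sst at 23.1 ± 11.4 (n = 4) and Foxp2 at 22.8 ± 10.7 lie next and close together. The spread in Foxp2 comes mostly from fasted 1, at 4.81 CPM, while the other 4 libraries lie between 24.1 and 33.2.

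Below these came Vdr at 13.2 ± 5.52 CPM (n = 3), Calcrl at 11.5 ± 9.32, Pde1c at 9.18 ± 3.63 and Dnah5 at 7.94 ± 5.96, none of which differ from their neighbours beyond the spread. The Prkcd class held 3.42 ± 4.77 CPM and the class with both Prkcd and Calcrl 2.91 ± 3.97. Both lie below the 3.87 CPM of all glia (exact Poisson 95% interval 2.00 to 6.76) and the 5.48 ± 4.00 CPM of astrocytes, and were read as background, while the means of Pde1c and Dnah5 lie above both levels and that interval. The 10.6 CPM of barcodes outside the bounds lies above all of these 4 classes.

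The receptor differed in 8 of the 11 classes, 5 of them higher. The log2 fold change against the mean of the other classes was 2.25 ± 0.31 in Nkx2-1 (edgeR adjusted p = 5.15e-08; 31.1% of genes passed) and 1.5 ± 0.16 in the ungated nuclei (edgeR adjusted p = 1.85e-10; 20.9% passed). It was 1.15 ± 0.31 in Sst (10.6% passed), 1.08 ± 0.24 in Foxp2 (25.2% passed) and 0.94 ± 0.20 in Rarb, where 18.4% of genes passed. Crhr1 was lower in Prkcd, at -2.48 ± 0.48 (edgeR adjusted p = 3.09e-05; 32% passed), in Prkcd and Calcrl, at -2.99 ± 0.73 (21.9% passed), and in Dnah5, at -0.94 ± 0.33 (edgeR adjusted p = 0.0325). The call in Dnah5 was lost without any 1 of the fed libraries (edgeR adjusted p 0.0771, 0.105 and 0.207), and that in Sst without fasted 2 (log2 fold 0.59, edgeR adjusted p = 0.584). In Calcrl, where 10.5% of genes passed, no member did.

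The comparison with the summed other nuclei, which the Crhr1-rich ungated nuclei dominate, changed 3 of these. The log2 fold was -0.07 in Rarb (22.6% of genes passed), 0.06 in Foxp2 and 0.08 in Sst, with edgeR adjusted p of 0.748, 0.868 and 0.961. In the same comparison Crhr1 was higher in the ungated nuclei, at 0.97 ± 0.12 (31% of genes passed), and in Nkx2-1, at 1.09 ± 0.27 (15% passed). It was lower in Prkcd at -3.28 (30.2% passed), in Prkcd and Calcrl at -3.75 (18.5% passed), in Dnah5 at -1.88 and in Pde1c at -1.26, and also in Calcrl at -1.24, where 9.73% of genes passed and the edgeR adjusted p was 0.00703.

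After thinning, the Crhr1 share was 12.3% in Nkx2-1, 11.2% in the ungated nuclei (exact 95% interval 9.91 to 12.6), 9.38% in Foxp2, 8.28% in Sst and 7.71% in Rarb. It was 2.89% in Dnah5 and 0.722% in Prkcd, beside 1.54% in glia (0.501 to 3.55). The share in Prkcd was at or below that of glia, and the shares in the first 5 classes were above it. Without thinning, 30.2% of ungated nuclei, 2.88% of Prkcd nuclei and 1.27% of glia had a Crhr1 UMI.

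Crhr2, the receptor with affinity for the urocortins, had 145 UMIs in 95 inhibitory nuclei, 73 of them with 1. It was highest in Nkx2-1, at 18.5 CPM in fed 2, 7.92 in fed 3 and 15.2 in fasted 2, a mean of 13.9 ± 5.41 (n = 3). The Foxp2 class followed with 6.03, 9.48, 9.17, 4.81 and 6.03 CPM in fed 1, fed 2, fed 3, fasted 1 and fasted 2, a mean of 7.10 ± 2.09. Every Foxp2 library lay above the Crhr2 level of the barcodes outside the bounds, 1.63 CPM, which was not taken as a measure of background.

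The Sst class held 24.1 CPM of Crhr2 in fed 2, 0 in fed 3, 14.9 in fasted 1 and 0.881 in fasted 2, a mean of 9.96 ± 11.6 (n = 4). These values differ widely among libraries, and 6 nuclei carry them. Of the 19 Crhr2 UMIs of the class, 15 were in 2 nuclei of fed 2. The remaining inhibitory classes had means of at most 1.56 CPM, and Crhr2 had no UMI in the Vdr class, in the class with Prkcd and Calcrl, or in the 710 glia.

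Crhr2 did not pass the filter on low counts when all classes were fitted together, so it has no test in that comparison. Against the summed other inhibitory nuclei it passed the filter and was higher in Foxp2, at a log2 fold of 2.32 ± 0.35 (edgeR adjusted p = 1.55e-05; 19.2% of genes passed), and in Nkx2-1, at 3.04 ± 0.59 (edgeR adjusted p = 0.0011). It was lower in the ungated nuclei, at -1.29 ± 0.37 (edgeR adjusted p = 0.016). A gene passes the filter by its highest sums, which in the Foxp2 and Nkx2-1 fits were those of the class called. After thinning, 6.85% of Nkx2-1, 3.22% of Foxp2 and 1.38% of Sst nuclei had a Crhr2 UMI.

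Crhbp, the binding protein that takes free CRH away from the receptors, had 164 UMIs in 103 inhibitory nuclei, with 71 at 1 UMI. In Nkx2-1 it stood at 11.6 CPM in fed 2, 26.4 in fed 3 and 27.3 in fasted 2, a mean of 21.8 ± 8.84 (n = 3). The Sst class held 16.1 CPM in fed 2, 4.82 in fed 3, 39.7 in fasted 1 and 3.52 in fasted 2, a mean of 16.0 ± 16.8 (n = 4). All of these lie at or above the 3.51 CPM of barcodes outside the bounds, which were not taken as a measure of background, and the Sst libraries spread widely.

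The Prkcd class held 2.82 ± 2.67 CPM of Crhbp and the ungated nuclei 2.46 ± 1.22, with 53 of the 103 nuclei. Both means lie below the 3.51 CPM of barcodes outside the bounds and above the 0.322 CPM of glia. No Crhbp UMI was seen in the Calcrl, Vdr and Pde1c classes. The log2 fold against the mean of the other classes was 5.38 ± 0.62 in Nkx2-1 (edgeR adjusted p = 2.91e-09), 4.02 ± 0.67 in Sst (edgeR adjusted p = 2.02e-05) and 1.52 ± 0.55 in the ungated nuclei (edgeR adjusted p = 0.0423). The call in the ungated nuclei was lost without fed 1, fed 3, fasted 1 or fasted 2 (edgeR adjusted p 0.136, 0.112, 0.0697 and 0.164). Because 3 classes are at 0, these folds depend on the small count added and are no bounds. Crhbp passed the filter on low counts by its highest sums, which are those of Nkx2-1 and Sst. The calls in these classes are therefore not independent of the filter, and both also passed with no filter. Among inhibitory classes, Sst is also the one besides Nkx2-1 with a raised sum of the basolateral interneuron list, 416 CPM against 107, and the part of such nuclei in its Crhbp and Crhr2 levels was not tested.

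Against the summed other inhibitory nuclei the log2 fold of Crhbp was 3.76 ± 0.53 in Nkx2-1 (edgeR adjusted p = 4.05e-05) and 2.48 ± 0.58 in Sst (edgeR adjusted p = 0.00966; 5.75% of genes passed). In the ungated nuclei it was -0.04 (edgeR adjusted p = 0.952), so that this call was lost and its sign turned. After thinning, 8.22% of Nkx2-1 nuclei had a Crhbp UMI (exact 95% interval 3.08 to 17), 2.07% of Sst nuclei and 0.308% of glia.

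The genes were then followed within single nuclei. A Crhr1 UMI was present in 38 of the 180 nuclei with Crh, 21.1%, beside 22.4% of all inhibitory nuclei. Crhr2 and Crhbp UMIs met in 14 nuclei, 14.7% of the 95 with Crhr2 and 13.6% of the 103 with Crhbp, while 2.17% of all inhibitory nuclei had Crhbp and 2.00% had Crhr2. Crh met Crhr2 in 3 nuclei and Crhbp in 4. These shares rise with depth and were not thinned.

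UMIs were next summed per library over nuclei with and without a UMI of each gene, and the sums were compared with the libraries as blocks. The classes were pooled, so these comparisons include differences between classes, and differences within a class were not tested. In nuclei with Crhr2 the level of Crhbp was higher by 3.49 ± 0.48 on the log2 scale (edgeR adjusted p = 3.01e-08), and in nuclei with Crhbp that of Crhr2 by 3.52 ± 0.55 (edgeR adjusted p = 5.86e-06). In nuclei with Crhr1, both were lower, Crhr2 by -1.58 ± 0.34 (edgeR adjusted p = 0.00166) and Crhbp by -1.29 (edgeR adjusted p = 0.0112). In the reverse comparisons Crhr1 did not pass, at -0.56 in nuclei with Crhr2 (edgeR adjusted p = 0.424) and -0.55 in nuclei with Crhbp (edgeR adjusted p = 0.442). In nuclei with Crhr1, Crh gave -0.59 (edgeR adjusted p = 0.104). The share of genes that passed in either direction was 4.42% for Crh, 24.6% for Crhr1, 6.54% for Crhr2 and 5.67% for Crhbp.

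Neuropeptides were compared between nuclei with and without a Crh UMI, with the classes pooled. The Dnah5 and Pde1c classes held 23.9% and 19.4% of the nuclei with Crh, beside 8.10% and 3.90% of inhibitory nuclei. The values below include this difference in classes. Of the 12 genes in the list of neuropeptides and Nos1, 9 were tested, 4 were higher and 1 was lower, while 2.3% of all genes tested were higher and 2.12% lower. Tac2, which encodes neurokinin B, stood at 17.5 CPM in fed 1, 101 in fed 2, 63.7 in fed 3, 106 in fasted 1 and 55.2 in fasted 2 in nuclei with Crh. In nuclei without Crh it stood at 14.7, 11.6, 14.8, 30.4 and 18.3 CPM, so that it was higher beside Crh in 5 of 5 libraries. The log2 fold was 2.11 ± 0.23 (edgeR adjusted p = 1.48e-05).

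Pdyn, the precursor of dynorphin, showed the same direction in every library. Its levels were 105, 65.8, 50.7, 32.5 and 30.0 CPM with Crh and 14.3, 11.8, 14.2, 17.1 and 11.6 without, in the same order (log2 fold 1.99 ± 0.22). Nts, which encodes neurotensin, was higher by 2.29 ± 0.34 in log2 (edgeR adjusted p = 0.000298), from 11.7, 62.0, 82.6, 0 and 18.4 CPM against 10.5, 4.97, 12.5, 7.61 and 8.11. Here fasted 1, with 15 nuclei that had Crh, went the other way. Pnoc, the precursor of nociceptin, was higher by 1.5, and Nos1, the neuronal nitric oxide synthase, was lower at -1.44.

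Over all genes, 263 were higher and 242 lower in nuclei with Crh, of 11422 tested, and without fed 3 the counts were 149 and 136. With each nucleus thinned to 4000 UMIs they were 29 and 68. In the thinning used for the shares, 56 of the 180 nuclei kept a Crh UMI, at 8 to 16 per library. Libraries with fewer than 10 such nuclei drop out of the fit, so the part of depth in this fall was not tested. Among genes at a mean of 20 CPM or more, the largest of the higher ones were Vipr2, a receptor for vasoactive intestinal peptide, at 2.89 ± 0.27 in log2, and Pde1c at 2.81 ± 0.18, followed by Jam2, Shroom3, Nts, Tac2, Pdyn, Dnah5 at 1.75, Myo3b and Stk32a. All 5 genes listed here as markers of the Dnah5 population (Vipr2, Tox, Dnah5, Nts and Tac2) were higher, in a comparison that pooled the classes. Lower were Synpo2 at -1.79, Gm19410, Tmem132c, Sox5 at -1.54, Calcrl at -1.50 and others. Of 4 astrocyte markers tested, 1 was higher in these nuclei, as was the 1 OPC marker tested of 3, Vcan, at 1.28 (edgeR adjusted p = 0.00452). No marker of oligodendrocytes (3 tested) or endothelium (1 tested) was higher. Vcan was also higher beside Crhr1, at 0.61, and beside Crhr2, at 1.17, and its part in these results was not tested.

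Beside Crhr1 no peptide gene was higher. Of 10 tested, 0 were higher and 5 lower: Npy and Cartpt at -1.45 each, Sst at -0.93, Penk at -0.84 and Pdyn at -0.39. Over all genes, 1433 were higher and 1503 lower of 11932, 12% and 12.6%. Thinned to 4000 UMIs, the counts were 320 and 362. In the thinning used for the shares, 386 of the 1064 nuclei kept a Crhr1 UMI. Among genes at a mean of 20 CPM or more, the higher ones were led by 6330411D24Rik at 2.37, Gpc5, a glypican of the cell surface, at 2.24 and Megf11 at 2.05. Tafa1 at 1.57, Elfn1 at 1.52 and Tacr3, the receptor for neurokinin B, at 1.49 came next, then Nefm at 1.36, Adarb2, Plpp4 and Phactr2. In the study Tafa1 marks the Il1Rapl2 cluster of the medial CeA. Nefm and Ebf1, here at 0.92, are further markers of it that the study also saw elsewhere.

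At the same level, the lower genes were led by Prkcd, from 112 ± 21.6 CPM without Crhr1 to 14 ± 5.30 with it (log2 fold -2.88 ± 0.13), and by Sox5 at -2.50. Dnah5 was at -1.98 and Calcrl at -1.82. Vipr2, a marker of the Dnah5 population at a lower mean level, was at -3.18. In the marker lists used here, 4 of 4 markers of the Prkcd population and 5 of 5 of the Calcrl population (Cdh9, Calcrl, Prkd1, Penk and Drd2) were lower beside Crhr1.

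The values beside Crhr2 and Crhbp are given together, but the 2 sets of nuclei differed. The Foxp2 class, 8.03% of inhibitory nuclei, held 28 of the 95 nuclei with Crhr2 and 1 of the 103 with Crhbp. The intercalated markers had opposite signs, with Foxp2 at 2.16 in log2 beside Crhr2 and -2.21 beside Crhbp, and Tshz1 at 1.63 and -1.96. Il1rapl2 was among the 10 largest beside Crhr2, at 3.47. The 2 comparisons share 14 of the nuclei with a UMI and nearly all of those without. Beside Crhr2, 367 genes were higher and 369 lower of 11259 (3.26% and 3.28%), and beside Crhbp 307 and 345 of 11508 (2.67% and 3%). Moxd1 stood at 4.63 in log2 beside Crhr2 and at 4.62 beside Crhbp, Gna14 at 5.07 and 4.11, Egfr at 4.33 and 3.67, Col19a1 at 3.99 and 3.57, Nxph1 at 3.77 and 4.01, Sox6 at 3.42 and 3.89, and Maf at 3.3 and 3.56. Sox6, Maf and Lhx6 are transcription factors of interneurons that arise in the medial ganglionic eminence. With Nkx2-1, which marks basolateral interneurons in the study, they form the list used here for these interneurons. Of this list, 4 of 4 were higher beside Crhr2 and 4 of 4 beside Crhbp.

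The peptide genes beside both were Sst, which encodes somatostatin, Npy, which encodes neuropeptide Y, and Nos1. Beside Crhbp, Npy stood at 178 CPM in fed 2, 89.9 in fed 3, 566 in fasted 1 and 29.8 in fasted 2, against 3.74, 2.89, 9.49 and 8.48 without it (log2 fold 4.53 ± 0.33, edgeR adjusted p = 4.82e-15). Each of these high values came from 4 nuclei. Fed 1 had 8 nuclei with Crhbp and was left out of the fit. Sst was higher at 2.67 and Nos1 at 2.82, and Tac2 was lower at -1.40.

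Beside Crhr2, Npy stood at 62.4, 32.1, 17.8, 576 and 0 CPM in fed 1, fed 2, fed 3, fasted 1 and fasted 2, against 1.67, 6.67, 4.52, 12.4 and 9.32 without it. The value of fasted 1 came from 3 nuclei, and fasted 2 had none. The log2 fold was 3.10 ± 0.42 for Npy, 2.74 ± 0.24 for Sst, 1.70 for Nos1 and 1.09 for Tac2, the 4 of 9 tested that were higher. In fasted 2, Sst stood at 17.1 CPM with Crhr2 and 46.7 without, against the direction of the other libraries.

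**Figure D3:**
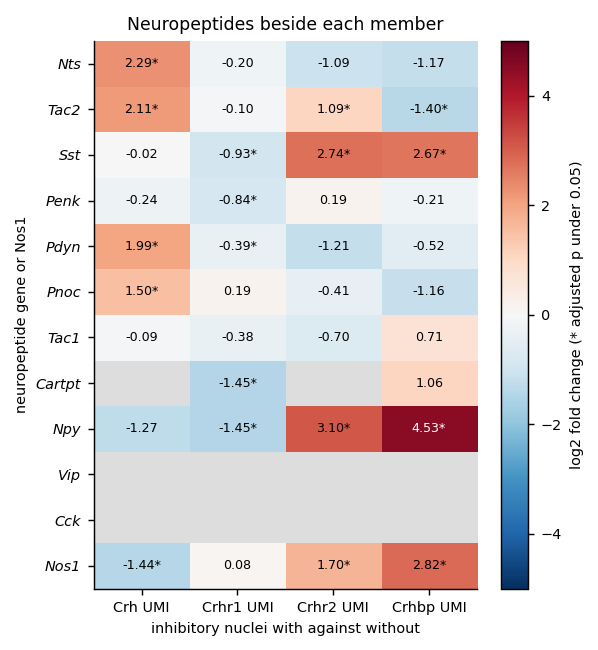
Log2 fold change of each neuropeptide gene and Nos1 (rows) in inhibitory nuclei with against without a UMI of each member (columns), with the colour scale in log2 units and a star for an edgeR adjusted p under 0.05. Classes are pooled. Nts, Tac2 and Pdyn are higher beside Crh, and Sst, Npy and Nos1 beside Crhr2 and Crhbp.

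Genes of the signalling pathway came from a list of 33: the urocortins, the receptor partner Ramp2, G proteins, cAMP sensors and kinases, transcription factors, arrestins, receptor kinases and the peptidase Mme. Ligands other than CRH were close to absent: inhibitory nuclei held 0 UMIs of Ucn, 9 of Ucn2 and 1 of Ucn3. Ramp2, a protein that can join Crhr1, had 55 UMIs.

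Of 29 pathway genes tested beside Crhr1, 5 were higher and 6 lower, beside 12% and 12.6% of all genes. Nr4a2, a nuclear receptor gene induced by cAMP, was at 7.97 ± 1.97 CPM with Crhr1 and 0.908 ± 0.809 without (n = 5, log2 fold 3.25 ± 0.31). Gnas, the stimulatory G protein to which the receptors couple, was at 675 ± 96.2 and 466 ± 73.9 CPM (log2 fold 0.53 ± 0.05, edgeR adjusted p = 1.08e-07). Arrb1, Rapgef3 and Mme were higher by at most 0.42. Nr4a3, a relative of Nr4a2, was lower at -1.37, and the others that were lower, among them Plcb1, Prkacb, Grk3 and Prkar1a, were lower by less than Nr4a3.

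Beside Crh, 1 of 28 was higher, Itpr1, the calcium channel of internal stores, at 0.49, and 2 were lower, the cAMP sensor Rapgef4 at -0.65 and Grk3 at -0.49, where 2.3% of all genes were higher and 2.12% lower. Beside Crhr2, Rapgef4 was higher at 0.61, and Plcb1, Gnas, Prkar1a and Gnal were lower, of 28 tested, beside 3.26% and 3.28% of all genes. Gnas at -0.46 beside Crhr2 and at 0.53 beside Crhr1 had opposite signs. Beside Crhbp, Rapgef4, Grk3 and Nr4a1 were higher and Itpr1 and Gnal lower, of 28 tested, beside 2.67% and 3% of all genes.

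Across classes, the pathway list had 7 genes higher and 5 lower of 29 in Pde1c, the class richest in Crh, where 11.5% of all genes were higher and 7.13% lower, with Itpr1 at 1.64 and Gnal, the G protein of striatal neurons, at 1.27. In Dnah5 it had 6 and 4, beside 13.1% and 8.64% of all genes, with Rapgef3 at 1.90, Gnas at 0.93 and Mme at -1.93. In the ungated nuclei it had 7 and 5, beside 13% and 7.87%, with Nr4a2 at 2.67 and Gnas at 0.70. In Prkcd, where Crhr1 was below its level in glia, it had 5 and 10, beside 17% and 15%, and the lower ones included Itpr1 at -1.92, Rapgef3 at -1.83 and Gnas at -1.13. The median log2 fold of the list lay between -0.11 in Vdr and 0.09 in Sst over the classes, and that of all genes tested was 0.02 or less.

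The genes whose levels over the 15 classes were most like those of each member were found among 9493 genes with at least 20 CPM in a class. Pearson's r of log2 levels was 0.867 for Dab1 with Crh, 0.920 for Tvp23a and 0.910 for Sclt1 with Crhr1, 0.916 for Lhx6 and 0.878 for Vwc2l with Crhr2, and 0.852 for Tatdn1 with Crhbp. The classes share libraries and differ in depth, and several hold 0 UMIs of Crhr2 or Crhbp, so these are descriptions only.

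Fasting was compared in 3 fed and 2 fasted libraries, which asks whether the levels of the 4 genes move with the feeding state. Over all inhibitory nuclei, no member passed the test. In this comparison 0.00749% of genes passed, 1 of 13358, and 677 genes had an unadjusted p under 0.05. A sum over all inhibitory nuclei cannot tell fewer nuclei of a class from less RNA per nucleus. The libraries also lost unlike numbers of nuclei to the gates, with 577 passing neither gate in fasted 1 and 136 in fasted 2.

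Crh stood at 3.44 ± 1.05 CPM in fed (SD, n = 3) and 3.47 ± 1.19 in fasted libraries (n = 2). The difference was smaller than the spread of either state. Crhr1 stood at 24.5 ± 3.07 and 29.2 ± 4.52 CPM, a log2 fold of 0.23 ± 0.17.

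Crhr2 stood at 2.46, 2.97 and 2.20 CPM in fed 1, 2 and 3 and at 1.71 and 1.32 in fasted 1 and 2. The log2 fold was -0.82 ± 0.34 (edgeR unadjusted p = 0.0406, adjusted p = 0.915). Crhbp stood at 2.19, 1.87 and 1.64 CPM in fed and 3.41 and 2.73 in fasted libraries, at a log2 fold of 0.67 ± 0.31 (edgeR unadjusted p = 0.0622, adjusted p above 0.9). When nuclei with Gad1 or Gad2 and a glial sum were put back, the fold of Crhbp was -0.07.

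**Figure D4:**
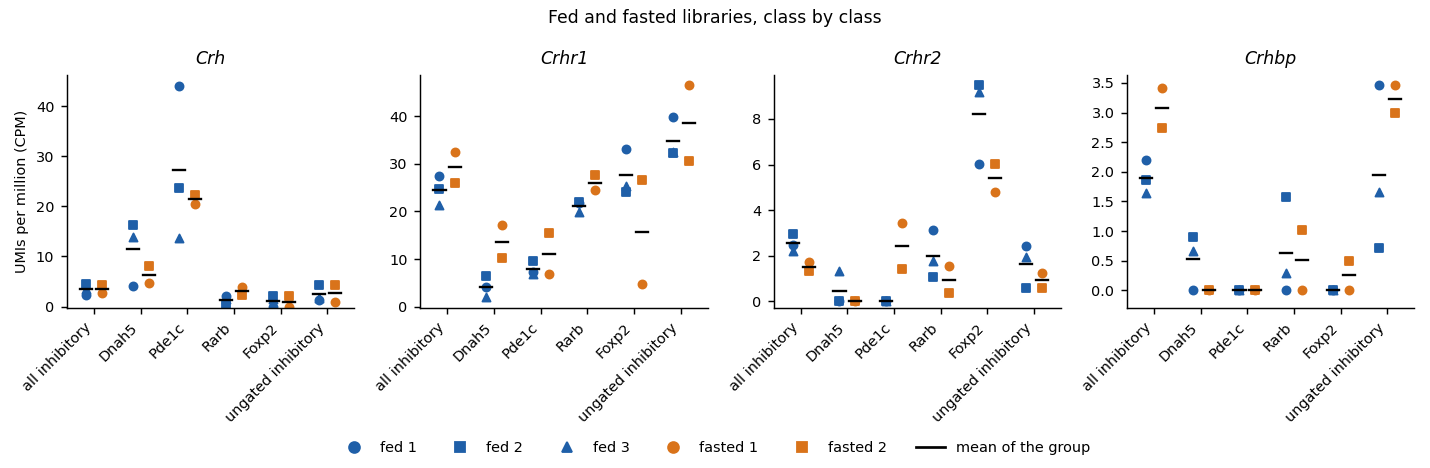
Level of each gene (y axis, CPM, linear from 0) in fed and fasted libraries, in all inhibitory nuclei and in 5 classes (x axis). Points are single libraries and short lines are means of a state. Crhr1 in Dnah5 lies at 1.97 to 6.34 CPM in fed and at 10.2 and 17.1 CPM in fasted libraries, and did not pass the test.

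With the preparation batch as a block, which pairs fed 1 with fasted 1 and fed 2 with fasted 2 by their numbers and leaves fed 3 alone in its block, the log2 folds were -0.03 for Crh, 0.12 for Crhr1, -0.98 for Crhr2 and 0.55 for Crhbp. The edgeR adjusted p was 0.201 for Crhr2 and 0.645 for Crhbp, so no member passed in this fit either. The block raised the number of all genes that passed from 1 to 377.

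By class, Crhr1 in Dnah5 had the smallest p of any member. It stood at 4.11, 6.34 and 1.97 CPM in fed 1, 2 and 3 and at 17.1 and 10.2 in fasted 1 and 2, from 13 and 30 UMIs in all. The log2 fold was 1.64 ± 0.59 (edgeR unadjusted p = 0.0131, adjusted p = 0.440), where 0.0662% of genes passed and 673 genes had an unadjusted p under 0.05. Crh in the same nuclei stood at 11.4 ± 6.45 CPM in fed and 6.35 ± 2.38 in fasted libraries (log2 fold -0.81 ± 0.54, edgeR adjusted p = 0.837).

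In Rarb, Crhr1 stood at 19.8 to 22.0 CPM in fed and at 24.5 and 27.6 in fasted libraries, with an unadjusted p of 0.186 in edgeR, where 0.0196% of genes passed. In Foxp2, Crhr2 stood at 8.23 ± 1.91 CPM in fed and 5.42 ± 0.862 in fasted libraries, and Crhr1 gave a log2 fold of -0.25, where 0.0826% of genes passed. In the ungated nuclei, with 0.00803% of genes passed, the log2 folds were 0.18 for Crh, 0.11 for Crhr1, -0.99 for Crhr2 and 0.82 for Crhbp.

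No member had enough counts for the test in Prkcd, Prkcd and Calcrl, Calcrl or Pde1c, where 0.242%, 0.154%, 0% and 0.183% of genes passed. In Pde1c, the class highest in Crh, the level was 27.2 ± 15.5 CPM in fed and 21.4 ± 1.3 in fasted libraries, a difference within the spread of the fed ones. In Calcrl, Crhr1 stood at 27.4, 10.0 and 9.86 CPM in fed and 3.42 and 6.68 in fasted libraries, and in Prkcd at 0 to 1.22 in fed and 11.7 and 3.35 in fasted, from 2 and 9 UMIs.

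The difference of the fasting effect between a class and all other inhibitory nuclei was tested in the 8 classes with at least 10 nuclei in every library, and no member passed. For Crhr1 in Dnah5 it was 1.46 ± 0.47 in log2 (edgeR unadjusted p = 0.00602, adjusted p = 0.466; 0.0247% of genes passed). For Crhr1 it was 2.53 in Prkcd (edgeR adjusted p = 0.712; 0.174% passed) and -1.56 in Calcrl (edgeR adjusted p = 0.990; 0.0499% passed). The share of genes that passed was 0.0572% in Prkcd and Calcrl, 0.382% in Pde1c, 0.0488% in Foxp2 and 0% in Rarb and the ungated nuclei. Of the 33 pathway genes, 30 were tested in all inhibitory nuclei, with a median log2 fold of -0.02, and 0 passed there or in any of the 8 classes.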

How the data were processed

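Nuclei of the mouse CeA were measured in 5 libraries with the 10x Chromium 3′ v3.1 chemistry, 3 fed and 2 fasted, grouped by their labels. The authors deposited raw UMI counts per gene and barcode. The file headers name Cell Ranger 5.0.0, the study's methods name GRCm39 with Cre and mCherry added and introns counted, and the submitters' processing notes name mm10 and Cell Ranger 2.1.1. Coordinates are those of GRCm39. The 4 genes, the classes and the gene lists were chosen with earlier results of these data known.

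Nuclei with 500 to 8000 genes and mitochondrial UMIs below 0.8% were kept. Inhibitory nuclei had at least 2 UMIs of Gad1 and Gad2, more than of Slc17a7 and Slc17a6, and no glial sum. A glial sum was at least 3 UMIs of Mog, Mag and Mobp, or at least 3 of Aqp4, Gja1, Gli3 and Slc1a3. At least 2 UMIs of Pdgfra and Cspg4 also made a glial sum. Glia had 1 such sum and at most 1 UMI of Gad1 and Gad2. Excitatory nuclei had at least 3 UMIs of Slc17a7 and Slc17a6, more than of Gad1 and Gad2, and no glial sum. Gates were at least 5 UMIs for Pde1c, Foxp2 and Rarb (and 1000, 600 and 400 CPM), 1 for Nkx2-1, 3 for Dnah5, Prkcd and Sst (200, 250 and 100 CPM), and 2 for Vdr and Calcrl (100 CPM). Another 320 nuclei with a glial sum and 1332 passing neither gate were set aside. Those passing neither gate were 297 of 1151 kept nuclei in fed 1, 158 of 1130 in fed 2 and 164 of 1438 in fed 3. They were 577 of 1708 in fasted 1 and 136 of 1734 in fasted 2. Of the 320 with a glial sum, 150 were in fasted 2. The gates use raw UMIs and so depend on depth. The part of this uneven loss in the class and fasting comparisons was not tested. Scrublet in scanpy 1.11.5 called 70 doublets (0.978%), which were kept. Levels are UMIs per 1000000 UMIs (CPM) of the nuclei summed.

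Counts were summed per class and library with at least 10 nuclei and tested with edgeR 4.0.16 (R 4.3.3): TMM, filterByExpr, quasi-likelihood test, Benjamini-Hochberg adjusted p under 0.05 over all genes. The SE of a log2 fold was taken as its absolute value divided by the square root of the test's F statistic, and is approximate. The study's test was edgeR's likelihood ratio test without a block. The scripts were tested on simulated data. By the study, replicates 1 shared a preparation batch, as did replicates 2, so the numbers were taken to pair libraries. That the labels use the study's numbers, and that fed 3 is the batch without fasted mice, was inferred, and fed 3 stands alone in its block. Deviations from the state means correlated at 0.337 and 0.517 over 13358 genes. The deviations of the 2 fasted libraries mirror each other, so these 2 values are not independent. Fed 1 and fasted 1 are also the shallow libraries, so the values cannot tell a shared batch from depth. Alternatives included DESeq2 1.42.0, RLE scaling, no filter, stricter bounds (1500 genes, 0.5%), changed gates, thinning and leaving out each library. Named were the members, list genes that passed (1 is counted but not reported here), the 10 genes with the largest change each way beside each member at 20 CPM or more, and the 3 genes most like each.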

Additional observations from a re-analysis of the deposited data

Results flagged for a closer look

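The 4 genes were also measured in barcodes that no comparison used, and 8 values there had an exact Poisson interval above that of glia. Barcodes outside the bounds on genes and mitochondrial share held 5.56 CPM of Crh, 10.6 of Crhr1, 1.63 of Crhr2 and 3.51 of Crhbp. Glia held 1.61 CPM of Crh, 3.87 of Crhr1, 0 of Crhr2 and 0.322 of Crhbp. The Crh level outside the bounds exceeds that of all inhibitory nuclei pooled, 3.76 CPM.

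Nuclei that passed neither the inhibitory nor another gate held 27.0 CPM of Crhr1, close to the 25.4 of inhibitory nuclei. Nuclei with at least 2 UMIs of Gad1 and Gad2 and a glial sum held 16.1 CPM of Crhr1, 5.50 of Crhr2 and 17.4 of Crhbp, beside 2.03 and 2.30 for Crhr2 and Crhbp in inhibitory nuclei. The Crhbp value rests on 98 UMIs in 16 of 320 nuclei, 54 of them in fed 2, 20 in fed 3, 23 in fasted 2, 1 in fasted 1 and 0 in fed 1. In 15 of these 16 the astrocyte sum set the nucleus aside, and without the gene Slc1a3 that sum would have done so in 3. Aqp4, a defining astrocyte gene, had no UMI in 15. The source of these Crhbp UMIs was not tested.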

How the results depend on the processing

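Of 14 class results, 6 passed in each of the 16 or 17 alternatives that gave a value: Crh in Pde1c and Dnah5, Crhr1 in Nkx2-1, the ungated nuclei, Prkcd, and Prkcd and Calcrl. Crhbp in Nkx2-1 and Sst passed in 15, and had no value in fed libraries alone and with gates doubled. The log2 fold ranged over the alternatives from 2.95 to 4.63 for Crh in Pde1c, from 1.72 to 3.61 for Crh in Dnah5 and from 0.97 to 2.24 for Crhr1 in the ungated nuclei. Crh in Vdr was lost in 7 of 16 (edgeR adjusted p up to 0.165), Crhbp in the ungated nuclei in 8 of 15, Crhr1 in Dnah5 in 5 of 17 and in Sst in 3 of 17, among them without fasted 2 (0.59). Crhr1 in Foxp2 and in Rarb lost the call only against the summed rest. Signs turned against the summed rest for Crhr1 in Rarb (-0.0726) and Crhbp in the ungated nuclei (-0.0417).

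Crhr2 has no test as filtered, which counts here as 0 classes that differ. It differed in 3 with no filter, in fed libraries alone, with gates halved, with glial-sum nuclei returned and against the summed rest, and in 0 to 3 when a library was left out (3 without fed 1, fed 3 or fasted 1). Crhbp went from 3 classes to 0 in fed libraries alone and with gates doubled, where it had no value and so was not tested. For the other changes the cause was not tested.

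For fasting in all inhibitory nuclei, the sign of Crh turned with the likelihood ratio test (-0.000434), DESeq2 (-0.00917), RLE scaling (-0.000838), no filter (-0.00126) and the replicate block (-0.0251), and ran from -0.40 (without fasted 2) to 0.22 when a library was left out. Crhbp turned to -0.0712 with glial-sum nuclei returned. Genes called went from 1 to 119 with the likelihood ratio test, 68 with DESeq2, 121 with no filter, 377 with the replicate block, 0 with glial-sum nuclei returned and 1 to 12 without a library (12 without fed 1). Of the members, 0 were called in any class, or differed in their fasting effect, under the alternatives run.

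Beside Crh, genes higher went from 263 to 29 after thinning and 149 to 271 without a library (172 without fed 2, 149 without fed 3), and genes lower from 242 to 372 with no filter, 68 after thinning and 136 to 299 without a library (136 without fed 3). Beside Crhr1, thinning left 320 higher and 362 lower, and beside Crhbp 215 to 345 genes were lower without a library (215 without fasted 2). Thinned nuclei with Crhr2 or Crhbp were too few for a fit. Thinning also leaves fewer nuclei with Crh or Crhr1, and a library with fewer than 10 on a side drops out. Depth limits Crhr2 and Crhbp, with 145 and 164 UMIs, and the lack of a call in a class cannot be read as absence.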
